A study of Mus musculus with 6 samples.

Results

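Collagen chain genes were taken as every protein-coding row of the count table whose symbol reads Col, a number, the letter a and a number, which gave 44 of 54100 genes. Their messenger RNA was measured in fibro-adipogenic progenitors (FAPs), the Pdgfra+ mesenchymal cells that lie between the fibres of skeletal muscle. All cells came from the plantaris, a calf muscle, of C57BL/6 mice, 3 libraries of sham and 3 of overloaded muscle, with 1000 sorted cells to a tube. Library construction followed a published protocol that tags transcripts near their 3' end. No genetic change is named in either group. How the load was applied, its duration, the age of the animals and whether a tube held cells of 1 animal or of several are not stated in the labels, so p-values measure the spread between these samples, part of which may be technical.

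A collagen is built from 3 chains that wind around each other along stretches in which glycine recurs at a fixed spacing. Fibrillar collagens form the rope-like fibrils that carry tension. FACIT collagens sit on the surface of those fibrils, type IV builds the sheet of the basement membrane, types VIII and X form short-chain lattices, type VI makes beaded filaments, and the multiplexins XV and XVIII lie where basement membrane meets matrix. In skeletal muscle FAPs are a main source of the fibrillar and type VI collagens around the fibres. The list held 11 fibrillar, 9 FACIT, 6 type IV, 3 short-chain network, 6 beaded filament, 2 multiplexin and 4 transmembrane chains, and 3 others (Col7a1, Col26a1 and Col28a1).

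Collagen messages took about 2 times as large a share of all counts in overloaded FAPs, most of it from Col3a1, Col1a2 and Col1a1. All chains together held 3.98% (95% Wilson interval 3.94 to 4.03), 4.09% (4.04 to 4.15) and 5.13% (5.08 to 5.18) of the counts in sham libraries 1 to 3. In overloaded libraries 1 to 3 they held 9.03% (8.98 to 9.09), 8.32% (8.26 to 8.38) and 8.71% (8.65 to 8.77). The intervals cover counting error only, and the groups did not overlap. Summed over chains, the level was 45208 ± 6018 CPM with sham and 92157 ± 4826 CPM with overload (SD, n = 3 in each group, as throughout), a ratio of 2.04. CPM are counts per 1e6 with library sizes scaled by TMM, which aligns the bulk of genes between libraries. No test was made on the sum.

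Of the 44 chains, 22 had enough counts to test, and of these 8 rose, 5 fell and 9 were not called (quasi-likelihood test of edgeR, adjusted p under 0.05). Over all 7207 genes tested, 29.3% were called, 15% higher and 14.3% lower. The median log2 fold change was 0.40 over the 22 chains and -0.02 over all genes tested. In CPM, 11 of the 22 chains had every overloaded library above every sham library and 6 had every one below, where 21.2% and 20.3% of all tested genes did so, 41.5% in either direction. The low-count filter passes a gene that is well counted in 1 group alone, so the 22 are the chains that reached that level in at least 1 group and do not stand for all 44.

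**Figure D1:**
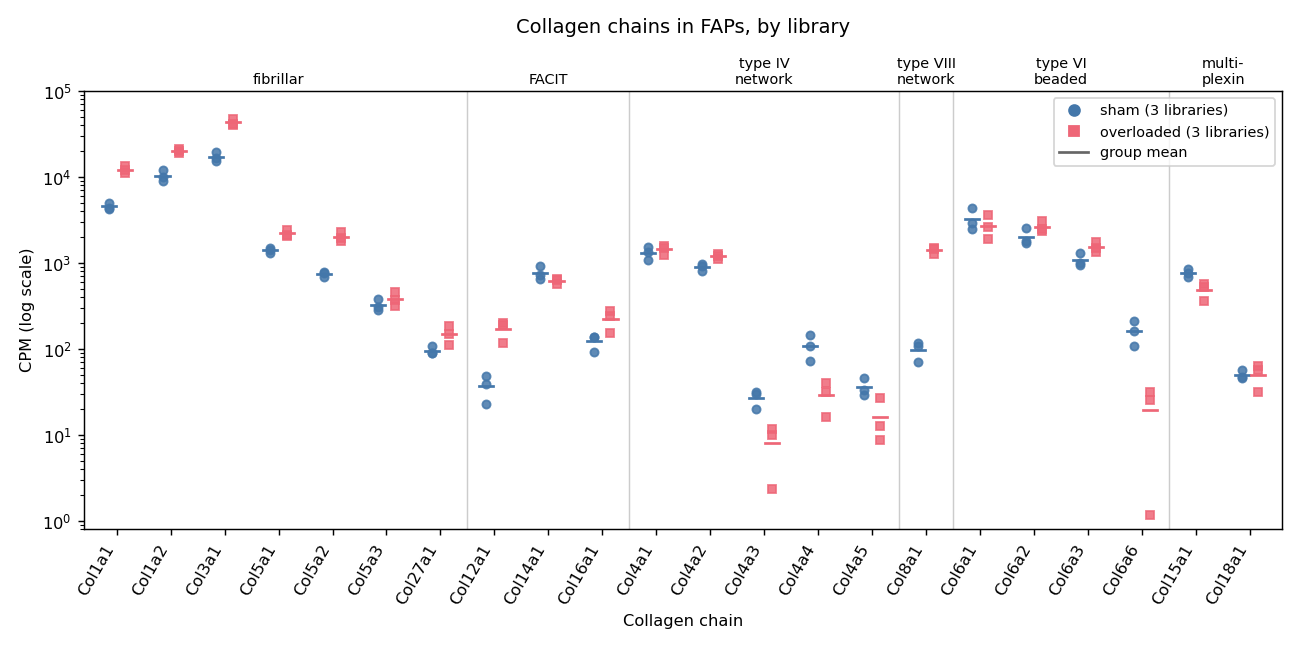
CPM on a log scale of the 22 tested chains, ordered by class; each point is 1 library (blue circles sham, red squares overloaded) and each bar a group mean. Without overlap, all fibrillar chains but Col5a3, and Col12a1, Col16a1, Col8a1, Col4a2 and Col6a3, sit higher in overloaded libraries, while Col14a1, Col4a3, Col4a4, Col4a5, Col6a6 and Col15a1 sit lower.

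Total counts ran from 500402 to 754456 with sham and from 850857 to 1124210 with overload. Libraries of 1 group differed by more than sampling noise (chi-square per degree of freedom 3.75 to 6.61), so none was a resampled copy of another. This value cannot show whether they came from separate animals. Each library was counted as its own sample. Reads assigned to odorant and vomeronasal receptors, genes of sensory neurons, stood at 1420, 1785 and 778 per 1e6 counts in sham and 306, 1080.1 and 230 per 1e6 in overloaded libraries. With that share as a covariate, 5 chains (Col1a1, Col3a1, Col5a2, Col8a1 and Col12a1) were called higher and 1, Col4a4, lower, where 6.9% of all genes tested were called higher and 6.2% lower, 13.1% in all. The share goes partly with the group, so with 6 libraries this fit has less power to find a group difference. A call lost with the covariate, here and below, therefore cannot be assigned to the receptor reads.

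Markers of FAPs and of other cell types were summed in each library. FAP markers, 12 of 12 detected, summed to 40735 to 54040.05 CPM with sham and 23862 to 33024 CPM with overload. Of them 1 rose and 7 fell, where 15% and 14.3% of all genes tested were called higher and lower. Most of the sum was Gsn, with 38411 counts with sham and 25286 with overload, and Dcn, at 20310 ± 1611 and 8208 ± 476 CPM. Mfap5 went the other way, with 1841, 1206 and 1606 counts in the sham and 6743, 5054 and 4670 in the overloaded samples. Endothelial markers, 10 of 10 detected, summed to 153 to 246 CPM with sham and 79.8 to 128 CPM with overload, and the most counted of them was Tek, with 233 counts with sham and 74 with overload. The next, Eng, went the other way, with 15, 13 and 27 counts in the sham and 53, 38 and 40 in the overloaded samples. Without Tek, left out after its values were seen, the other 9 markers stood at 73.01 ± 39.8 and 81.4 ± 25.1 CPM, and the groups overlapped. Pericyte and smooth muscle markers (8 of 8 detected) ran at 143 to 195 CPM with sham and 108 to 163 CPM with overload. Tenocyte markers, 7 of 7 detected, summed to 176 to 214 CPM with sham and 3406 to 4433 CPM with overload. Under overload nearly all of that was Thbs4, a matrix protein of tendon, with 69, 55 and 63 counts in the sham and 4331, 2651 and 3678 in the overloaded samples. Without Thbs4, left out after its values were seen, they stood at 92.3 ± 6.86 and 106 ± 63.8 CPM, and Scx, the defining tendon factor, had 2, 1 and 1 counts with sham and 9, 0 and 12 with overload. Chondrocyte markers, 6 of 7 detected and none for Cnmd, ran at 339 to 394 CPM with sham and 214 to 322 CPM with overload, most of them counts of Sox9. Leukocyte (7 of 10 detected; Adgre1, Lyz2 and Cx3cr1 at 0), satellite cell (6 of 7; Myod1 at 0), myofibre (7 of 8; Tnnc2 at 0) and adipocyte markers (4 of 4) each stayed under 70 CPM in every library, the highest being 68.4 CPM. In bulk samples fewer cells of a type and less RNA per cell cannot be told apart, and the part of these cells in the collagen values was not tested.

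Sequence before the start is shown for 3 chains that rose and for the interval shared by 2 chains that fell. The 3 chains are among those whose RefSeq start is also the annotated start, and the interval runs between the annotated starts of its genes. The sequence was read from RefSeq on GRCm38.p6, whose table held 38 windows for 35 of the 44 genes, each with 250 bases before and 50 after a start. Col3a1 (chr1:45311388-45311537, plus strand), Col5a1 (chr2:27886275-27886424, plus strand) and Col8a1 (chr16:57754738-57754887, minus strand) rose, and 150 bases before each start are shown. The 71 bases between the starts of Col4a4 and Col4a3 (chr1:82586850-82586920, minus strand), which both fell, are the whole interval between those genes. Capitals mark matches, on either strand, to 6 motifs. These are the TATA box, spelled TATAAA, the CCAAT box, the GC box, spelled GGGCGG, the binding letters of TEAD factors, GGAATG, those of SMAD factors, CAGACA, and those of AP-1, TGACTCA.
Col3a1: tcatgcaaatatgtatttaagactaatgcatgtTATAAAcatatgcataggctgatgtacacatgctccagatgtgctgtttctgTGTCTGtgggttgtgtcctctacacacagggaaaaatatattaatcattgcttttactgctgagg
Col5a1: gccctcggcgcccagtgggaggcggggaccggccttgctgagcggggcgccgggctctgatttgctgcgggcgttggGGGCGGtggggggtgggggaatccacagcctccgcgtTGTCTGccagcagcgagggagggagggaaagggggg
Col8a1: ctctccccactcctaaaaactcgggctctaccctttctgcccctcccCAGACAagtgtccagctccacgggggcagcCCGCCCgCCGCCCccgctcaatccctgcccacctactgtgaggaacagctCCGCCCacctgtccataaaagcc
Col4a4-Col4a3: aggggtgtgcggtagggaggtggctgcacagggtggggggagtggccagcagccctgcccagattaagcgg
The Col3a1 stretch held TATAAA at position -117 and the SMAD letters in reverse at -65, counted from the start. Col5a1 held a GC box at -73 and the SMAD letters in reverse at -36. Col8a1 held GC boxes in reverse at -73, -66 and -23 and the SMAD letters at -103. In the interval between Col4a4 and Col4a3 none of the 6 motifs was found. Over the full windows, the GC box was present in 23 of 38 collagen windows (60.5%) and in 35.6% of all 32817 windows. TATAAA was present in 13.2% against 13.6%, CCAAT in 34.2% against 37.4%, the SMAD letters in 23.7% against 21.0%, the TEAD letters in 13.2% against 14.7% and the AP-1 letters in 2.63% against 5.20%. These matches are a description of the letters and were not set against the changes.

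Among fibrillar chains, 7 of 11 were tested, 5 rose, 0 fell and 2 were not called. Over all genes tested 15% rose and 14.3% fell. Col3a1, the single chain of type III collagen (chromosome 1, 45311538 to 45349706 on GRCm38, the build of all positions here), was at 15149, 16369.96 and 19365 CPM in the 3 sham samples, against 47643, 39854 and 41321 CPM after overload, given in the order of replicates 1 to 3 here and for all chains. Every overloaded library lay above every sham library by more than 2 times (edgeR log2 fold change 1.34, SE 0.19, adjusted p = 2.14e-06). Col1a1, which encodes the alpha1 chain of type I collagen, the main collagen of tendon and of muscle connective tissue (chromosome 11, 94936224 to 94953042), was at 4339.9, 4259.96 and 5015 CPM in the 3 sham samples, against 11127, 11908 and 13276 CPM after overload. Its groups did not overlap either (edgeR log2 fold change 1.42, SE 0.19, adjusted p = 1.17e-06). Col1a2, the alpha2 chain of the same molecule (chromosome 6, 4504814 to 4541544), was at 10084, 8881 and 11985 CPM in the 3 sham samples, against 20915, 18839 and 19801 CPM after overload. Here too all overloaded libraries were above all sham libraries (edgeR log2 fold change 0.94, SE 0.19, adjusted p = 0.000268). With the receptor reads as covariate its log2 fold change was 0.73 and it was not called (edgeR adjusted p = 0.0632, the highest of 15 alternatives, against a lowest of 1.7e-06).

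Type V collagen, which nucleates type I fibrils and sets their width, has 3 chains here. Col5a2 (chromosome 1, 45374321 to 45503282), whose gene lies 24614 bases from Col3a1 on the same chromosome, was at 777, 682 and 771 CPM in the 3 sham samples, against 2294, 1778 and 1939.8 CPM after overload. All overloaded libraries were above all sham libraries (edgeR log2 fold change 1.43, SE 0.20, adjusted p = 1.77e-06). Col5a1 (chromosome 2, 27886425 to 28039514) was at 1319, 1410.3 and 1477 CPM in the 3 sham samples, against 2427, 2054 and 2109.9 CPM after overload. The groups were apart and the chain rose (edgeR log2 fold change 0.65, SE 0.19, adjusted p = 0.00975), and with the receptor reads as covariate it was not called (edgeR adjusted p = 0.191, against 0.00123 at the lowest of 15 alternatives). Col5a3, the chain found in only part of type V molecules, stood at 322 ± 51.5 CPM with sham and 379 ± 72.5 CPM with overload and did not pass (edgeR log2 fold change 0.24, SE 0.21, adjusted p = 0.417). Its 95% interval on the log2 scale ran from -0.17 to 0.66.

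Col27a1, a fibrillar chain best known from cartilage, stood at 95.1 ± 10.6 CPM with sham and 147 ± 35.6 CPM with overload, just outside the threshold (edgeR log2 fold change 0.62, SE 0.24, adjusted p = 0.0506). It was called in 3 of 15 alternatives, which were a minimum count of 30 and leaving out sham replicate 1 or overloaded replicate 1. The cartilage chains Col2a1, Col11a1 and Col11a2 and the bone-associated Col24a1 had too few counts to test. Col11a1 had 24 counts with sham and 17 with overload, and Col2a1 had 2 and 2.

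The FACIT class had 3 tested chains of 9. Col12a1, which decorates type I fibrils in tendon and muscle (chromosome 9, 79598991 to 79718831), was at 38.7, 22.8 and 48.4 CPM in the 3 sham samples, against 118, 191 and 202 CPM after overload. It was low in sham libraries and rose in each overloaded one without overlap (edgeR log2 fold change 2.17, SE 0.28, adjusted p = 9.3e-07). Col16a1, a FACIT-like chain found near basement membranes and fibrils (chromosome 4, 130047840 to 130099283), was at 93.1, 139 and 137 CPM in the 3 sham samples, against 274, 243 and 154 CPM after overload. Overloaded library 3 stood close to the sham libraries, and the chain passed the test (edgeR log2 fold change 0.87, SE 0.24, adjusted p = 0.00678) except with the receptor reads as covariate (edgeR adjusted p = 0.064). Col14a1, the other major FACIT of type I fibrils (chromosome 15, 55307750 to 55520803), stood at 766 ± 139 CPM with sham and 616 ± 45.004 CPM with overload and did not pass (edgeR log2 fold change -0.32, SE 0.20, adjusted p = 0.244). The 6 untested FACIT chains, Col9a1, Col9a2, Col9a3, Col19a1, Col20a1 and Col22a1, had at most 23 counts in a group, those of Col9a2 in sham. Col19a1 had 10 and 1. The tenocyte marker sum, carried by Thbs4, was higher in overloaded libraries beside this class, and its part was not tested.

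The largest rise of all 22 tested chains was that of Col8a1, a short chain that forms hexagonal lattices in the wall of vessels and beneath the corneal endothelium (chromosome 16, 57624258 to 57754737). It was at 70.2, 108 and 116 CPM in the 3 sham samples, against 1434, 1267 and 1508 CPM after overload. No sham library came within 10 times of an overloaded one (edgeR log2 fold change 3.84, SE 0.23, adjusted p = 3.88e-14), and the mean rose 14.3-fold. Over 15 alternatives the log2 fold change ran from 3.65 to 4.02. Its partner in the class, Col8a2, had 25 counts with sham and 32 with overload, too few to test. Col10a1, the chain of hypertrophic cartilage, had 0 counts with sham and 3 with overload, where 3 counts over the group correspond to 1.56 CPM with sham and 1.11 CPM with overload.

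In the type IV class 5 of 6 chains were tested, 0 rose and 3 fell, where 15% and 14.3% of all genes tested did so. Col4a1 and Col4a2 make the form found in nearly every basement membrane, and Col4a3, Col4a4 and Col4a5 make the form known from kidney, lung and inner ear. Col4a1 (chromosome 8, 11198423 to 11312826) was at 1078, 1533 and 1324 CPM in the 3 sham samples, against 1578, 1505 and 1232 CPM after overload. The groups overlapped (edgeR log2 fold change 0.13, SE 0.20, adjusted p = 0.661), with a 95% interval from -0.25 to 0.52 on the log2 scale. Col4a2, whose first exon overlaps that of Col4a1 by 22 bases on the opposite strand (chromosome 8, 11312805 to 11449287), stood at 897 ± 90.5 CPM with sham and 1188 ± 76.5 CPM with overload and did not pass (edgeR log2 fold change 0.41, SE 0.19, adjusted p = 0.113).

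Col4a4 (chromosome 1, 82448423 to 82586849) was at 73.02, 108 and 144 CPM in the 3 sham samples, against 40.4, 31.4 and 16.2 CPM after overload. All overloaded libraries were below all sham libraries (edgeR log2 fold change -1.87, SE 0.32, adjusted p = 4.72e-05), and it was called lower in all 15 alternatives. Col4a3 starts 71 bases away on the other strand (chromosome 1, 82586921 to 82722059) and was at 30.1, 31.1 and 20.2 CPM in the 3 sham samples, against 11.5, 10.03 and 2.31 CPM after overload. It fell too (edgeR log2 fold change -1.71, SE 0.49, adjusted p = 0.00826), on 51 counts with sham and 22 with overload. Without overloaded replicate 3 its log2 fold change was -1.27 and it was not called (edgeR adjusted p = 0.0602), and with the receptor reads as covariate it was -1.18 (adjusted p = 0.280). Of its exon bases, 5.65% overlap a non-coding gene on the opposite strand, and reads of those bases cannot be assigned without a strand setting. Per 100 counts of Col4a1, Col4a4 had 6.77, 7.04 and 10.9 in sham and 2.56, 2.08 and 1.31 in overloaded libraries, a ratio picked after the values were seen and given without a test.

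Col4a5 (chromosome X, 141475385 to 141689234) was at 45.8, 29.04 and 33.6 CPM in the 3 sham samples, against 26.9, 8.78 and 12.7 CPM after overload. The groups did not overlap and the fall passed the test (edgeR log2 fold change -1.13, SE 0.40, adjusted p = 0.0329), but it was called in 6 of the 14 alternatives in which it could be tested. It was lost without sham replicate 1 or 3 and without overloaded replicate 2 or 3, with thinning, with no count filter, by DESeq2 and with the receptor reads as covariate (adjusted p 0.00845 to 0.174 over the 14). Col4a6, its neighbour across 1308 bases, had 12 counts with sham and 7 with overload. Beside these 3 chains and Col15a1, the endothelial marker Tek was lower under overload, while the other 9 endothelial markers overlapped between groups, and their part was not tested.

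**Figure D2:**
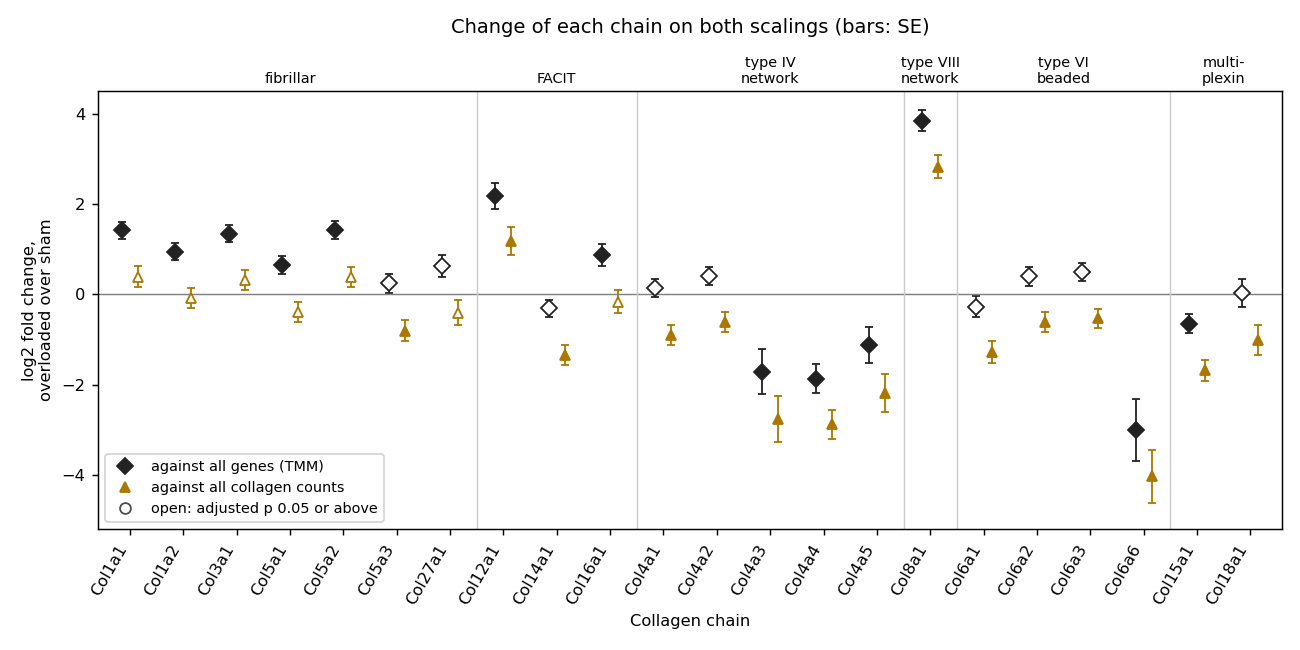
Log2 fold change of overloaded over sham for the 22 tested chains, with SE bars, on 2 scalings: diamonds against all genes (TMM) and triangles against the summed collagen counts; filled symbols have an edgeR adjusted p under 0.05. Col8a1 and Col12a1 are the chains above 0 and filled on both scalings, and every type IV and type VI chain lies below 0 and is filled against the collagen total. On that scaling 61.8% of all genes tested were called lower, with a median log2 fold change of -1.05. Col4a1, Col4a2, Col6a2 and Col6a3 lie above that median and the other chains of types IV and VI below it.

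In the beaded filament class 4 of 6 chains were tested, 0 rose and 1 fell, where 15% and 14.3% of all genes tested did so. The common type VI molecule joins Col6a1, Col6a2 and Col6a3, and it links cells to the interstitial matrix of muscle. Col6a1 (chromosome 10, 76708792 to 76726168) was at 2463, 2920.2 and 4405 CPM in the 3 sham samples, against 2584, 3566 and 1899 CPM after overload. The groups overlapped widely (edgeR log2 fold change -0.28, SE 0.23, adjusted p = 0.394), and without sham replicate 3 the log2 fold change was 0.02. Col6a2 (chromosome 10, 76595762 to 76623630) was at 1691, 1806 and 2519 CPM in the 3 sham samples, against 2484, 3069 and 2350.5 CPM after overload. Sham library 3 lay among the overloaded libraries, and the chain did not pass (edgeR log2 fold change 0.39, SE 0.20, adjusted p = 0.145). Col6a3 (chromosome 1, 90765923 to 90843971) was at 956, 1004 and 1286 CPM in the 3 sham samples, against 1738, 1487 and 1336 CPM after overload. Overloaded libraries were all above sham libraries, but the difference did not pass (edgeR log2 fold change 0.49, SE 0.20, adjusted p = 0.0603). It was called higher in 4 of 15 alternatives, by DESeq2, by limma-voom, without sham replicate 3 and without overloaded replicate 3.

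Col6a6, a chain that can take the place of Col6a3 (chromosome 9, 105687809 to 105828160), was at 109, 159.7 and 211 CPM in the 3 sham samples, against 31.7, 25.1 and 1.16 CPM after overload. It fell in every overloaded library, most in library 3, where 1 count was left (edgeR log2 fold change -3.01, SE 0.69, adjusted p = 0.021). Without overloaded replicate 2 the log2 fold change was -3.18 and not called (edgeR adjusted p = 0.0941), and with the receptor reads as covariate it was -3.11 (adjusted p = 0.0549). Without overloaded replicate 3 it was -2.45 and without overloaded replicate 1 it was -3.60. Per 100 counts of Col6a1, a ratio again picked after the values were seen, Col6a6 had 4.42, 5.47 and 4.80 in sham and 1.23, 0.703 and 0.0609 in overloaded libraries. Its neighbours Col6a5 and Col6a4, in 1 cluster with it on chromosome 9, were near the floor. Col6a5 had 3, 4 and 4 counts with sham and 1, 0 and 0 with overload, and Col6a4 had 0, 5 and 0 and then 1, 1 and 0.

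The multiplexins both entered the test. Col15a1, a proteoglycan collagen of the outer face of basement membranes around muscle fibres and capillaries (chromosome 4, 47208161 to 47313167), was at 693, 755 and 844 CPM in the 3 sham samples, against 523, 571 and 363 CPM after overload. The groups were apart and it fell (edgeR log2 fold change -0.65, SE 0.20, adjusted p = 0.0155). The call was lost without sham replicate 3 (edgeR adjusted p = 0.102), without overloaded replicate 3 (0.126), with no count filter (0.0907) and with the receptor reads as covariate (0.188). Col18a1, the source of the fragment endostatin, stood at 49.7 ± 5.54 CPM with sham and 50.1 ± 16.6 CPM with overload (edgeR log2 fold change 0.03, SE 0.31, adjusted p = 0.961), with a 95% interval from -0.58 to 0.63 on the log2 scale.

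The 22 chains that did not enter the test held 190 counts over the sham and 130 over the overloaded libraries, or 0.216% and 0.0520% of collagen counts. Each had between 2 and 57 counts in all 6 libraries, so at this depth differences in them were mostly not detectable. Among transmembrane collagens, Col23a1 had 8, 4 and 9 counts with sham and 4, 1 and 1 with overload. That is a ratio of sham to overloaded of 4.92 after scaling, with a 95% counting interval from 1.92 to 14.9. The interval pools the libraries of a group and leaves out the spread between them, so it is not a test of the groups. Col13a1 had 6 and 7 counts, Col17a1, a hemidesmosome collagen of epithelia, 11 and 13, and Col25a1 11 and 3. Col7a1, which forms anchoring fibrils under the epidermis, had 5 and 1, Col26a1 5 and 1, and Col28a1, a collagen of peripheral nerve, 1 and 6. Receptor reads, given above, were also more frequent in sham libraries, except that overloaded library 2 (1080.1 per 1e6) stood above sham library 3 (778 per 1e6). Their part in these low counts was not tested.

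Composition was then described as the share of each chain or class in all collagen counts of a library. Fibrillar chains made up 76.2% ± 1.69 of collagen counts in sham and 86.4% ± 1.81 in overloaded libraries. The beaded filament class went the other way, with 14.3% ± 1.75 and 7.46% ± 1.54. Type IV held 5.31% ± 0.765 and 2.91% ± 0.228, FACIT chains 2.10% ± 0.0916 and 1.11% ± 0.0273, and multiplexins 1.81% ± 0.102 and 0.581% ± 0.135. The short-chain network, nearly all Col8a1, held 0.246% ± 0.0333 and 1.54% ± 0.133. The groups did not overlap for any of these 6 classes, nor for the transmembrane and other chains, which had few counts. Relative to the collagen total, 65.7% of all single genes tested did not overlap, 2.59% higher and 63.1% lower. Shares are of counts and add to a fixed total, so a rise in Col3a1, Col1a1 and Col1a2 alone lowers the share of the rest, and no test was made on a class.

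**Figure D3:**
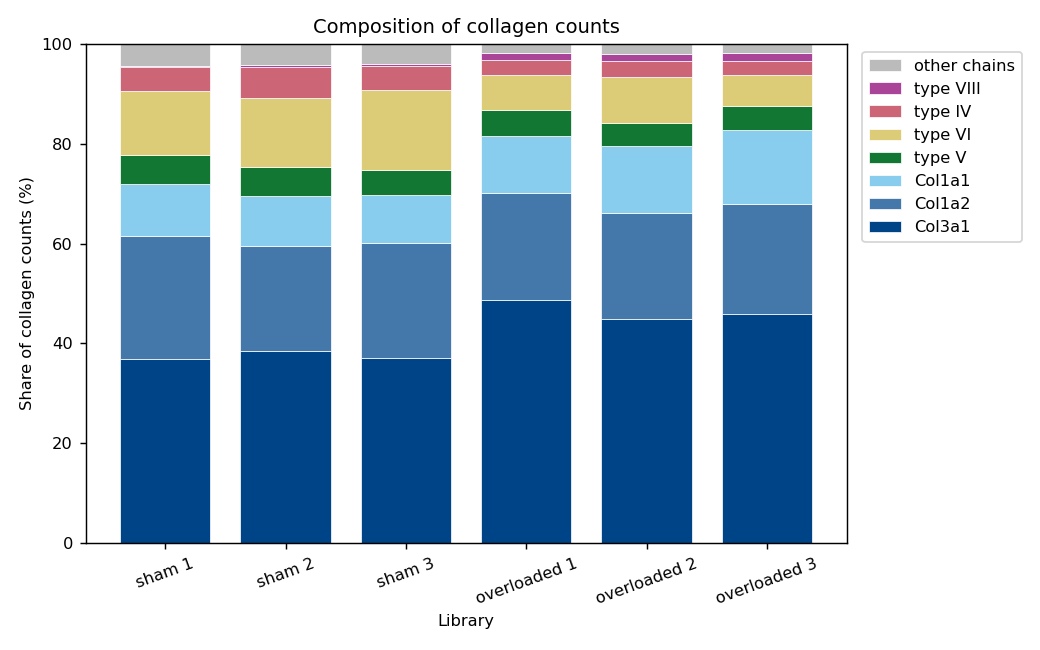
Share of collagen counts (%) in each of the 6 libraries, stacked by chain or type; every bar adds to 100%. Col3a1, Col1a2 and Col1a1 together hold 69.5 to 72.0% in sham and 79.5 to 82.7% in overloaded libraries, and type VI holds 12.7 to 16.2% and 6.21 to 9.18%.

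Within the fibrillar class Col3a1, Col1a1 and Col5a2 had higher shares under overload without overlap. The Col3a1 share was 36.9, 38.6 and 37.2% in the 3 sham samples, against 48.8, 44.9 and 45.9% after overload. For Col1a1 the share went from 10.1% ± 0.474 to 13.2% ± 1.69, and for Col5a2 from 1.66% ± 0.212 to 2.17% ± 0.173, both without overlap. Col1a2 stood at 22.8% ± 1.82 in sham and 21.5% ± 0.413 in overloaded libraries, with overlapping groups. Col5a1, whose level rose, had a lower share, 3.12% ± 0.255 in sham and 2.38% ± 0.0911 in overloaded libraries. Type V as a whole was at 5.50% ± 0.523 and 4.96% ± 0.319, overlapping.

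To ask which chains changed against the collagen total, the fit over all genes was repeated with the summed collagen counts as library size. This scaling moved the median log2 fold change of all tested genes from -0.02 to -1.05, and 2.23% of all genes tested were called higher and 61.8% lower, 64.1% in all. Of the 22 chains, 2 were called higher and 13 lower. The share of chains called lower was close to that over all genes, so their number says nothing particular about collagens. In share of collagen counts 5 chains lay higher and 14 lower without overlap, where 2.59% and 63.1% of all tested genes did, 65.7% in all. The 2 higher chains were Col8a1, with log2 fold change 2.83 (SE 0.25, edgeR adjusted p = 5.71e-11), and Col12a1, at 1.17 (SE 0.31, edgeR adjusted p = 0.00144). Among the 7 not called were 6 of the 7 fibrillar chains: Col1a1 stood at 0.39 (SE 0.23, edgeR adjusted p = 0.129), Col3a1 at 0.31 (SE 0.23, edgeR adjusted p = 0.229) and Col1a2 at -0.08 (SE 0.23, edgeR adjusted p = 0.755).

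Those 3 chains make up most of the total they were measured against. With a total that left them out, 5 chains were called higher (Col1a1, Col3a1, Col5a2, Col8a1 and Col12a1) and 7 lower (Col4a3, Col4a4, Col4a5, Col6a1, Col6a6, Col14a1 and Col15a1), where 6.22% and 23.7% of all genes tested were called, 29.9% in all. Over all genes tested the median log2 fold change was -1.05 against the whole total and -0.40 against this one. A gene of unchanged level therefore falls on both scalings. Col14a1, not called on the scale of all genes, was lower against both collagen totals (log2 fold change -1.34 against the whole). Its share was 1.69% ± 0.126 in sham and 0.668% ± 0.0369 in overloaded libraries. Col6a1 was the other such chain (log2 fold change -1.28 against the whole), with a share of 7.11% ± 1.24 in sham and 2.92% ± 0.983 in overloaded libraries.

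Pairs of chains that share a trimer or a class were set against each other as ratios of counts, which compares the same ratio between groups and not the level of 1 chain with another. For 10 pairs an exact two-sided permutation test on the log2 ratio was made, where 3 libraries against 3 cannot give a p under 0.1. That limit was reached by 8 pairs (exact permutation p = 0.1, 0.125 after Benjamini-Hochberg adjustment over the 10 pairs), so none could pass a threshold of 0.05. No share over other pairs of genes was taken, and some of the 10 pairs share a chain. In CPM, 41.5% of all single genes tested were apart between groups, so the number of pairs apart is a description only. The ratio of Col1a1 to Col1a2, in a molecule where alpha1 chains outnumber the alpha2 chain, was 0.430, 0.480 and 0.418 in sham and 0.532, 0.632 and 0.670 in overloaded libraries. All overloaded values were above all sham values. Col5a1 to Col5a2 was at 1.70, 2.07 and 1.92 in sham and 1.06, 1.16 and 1.09 in overloaded libraries, lower in each overloaded library.

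For type VI, the ratio of Col6a1 to Col6a2 was 1.46, 1.62 and 1.75 in sham and 1.04, 1.16 and 0.808 in overloaded libraries. Every overloaded library was below every sham library. Col6a3 to Col6a1 was at 0.388, 0.344 and 0.292 in sham and 0.673, 0.417 and 0.703 in overloaded libraries, higher in each overloaded library. On the fibril surface, Col12a1 to Col14a1 was at 0.0537, 0.0348 and 0.0526 in sham and 0.183, 0.338 and 0.318 in overloaded libraries, a difference of 2.55 on the log2 scale between group means. Col8a1 to Col8a2 was at 3.50, 8.67 and 17.2 in sham and 115, 112 and 130.4 in overloaded libraries, on few Col8a2 counts.

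Of the other 4 pairs, 2 were apart between groups and 2 overlapped. Col15a1 to Col18a1 went from a mean of 15.5 ± 2.59 to 10.04 ± 1.63 without overlap. Col5a3 to Col5a1 was 0.230 ± 0.0344 and 0.172 ± 0.0178, also apart. The head-to-head pair Col4a1 to Col4a2 was at 1.35, 1.66 and 1.36 in sham and 1.43, 1.20 and 1.03 in overloaded libraries and overlapped (exact permutation p = 0.3). Col3a1 to Col1a1 was at 3.49, 3.84 and 3.86 in sham and 4.28, 3.35 and 3.11 in overloaded libraries and overlapped as well (exact permutation p = 0.6).

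**Figure D4:**
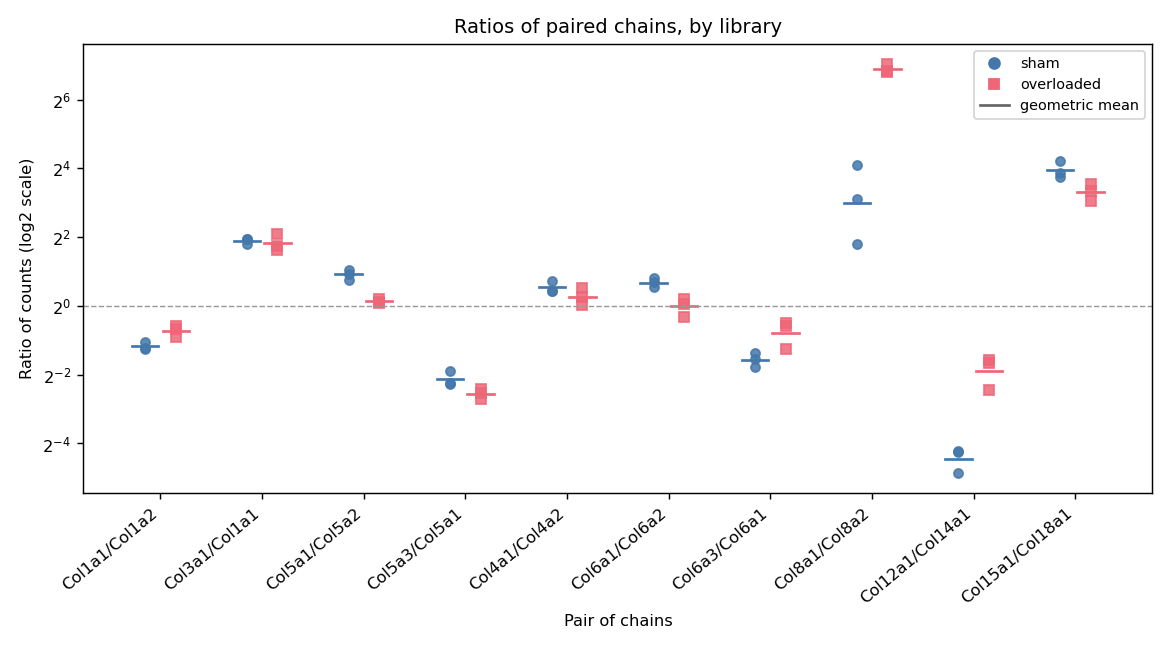
Ratio of counts for 10 pairs of chains on a log2 axis; each point is 1 library (blue circles sham, red squares overloaded), bars are geometric means and the dashed line marks equal counts. Groups separate for 8 pairs and overlap for Col3a1/Col1a1 and Col4a1/Col4a2. Some pairs share a chain, and no share over other pairs of genes was taken.

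Between chains, the order of levels depends on whether counts are divided by exon length. By CPM, Col3a1, Col1a2 and Col1a1 were the 3 most counted chains in both groups. Per kilobase of exon, the order in sham was Col3a1, Col1a2, Col6a1 and Col1a1, and in overloaded libraries Col3a1, Col1a1 and Col1a2. Col8a1 was number 16 of 44 per kilobase in sham and number 10 in overloaded FAPs, and Col5a2 went from number 12 to number 7. In a library that tags 3' ends counts need not scale with length, so neither order is firm where neighbours are close.

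Genes that make, cross-link, bind and degrade collagen were counted by role on the same fit, from lists of 85 genes of which 70 were tested, 23 rose and 19 fell. Of 12 tested hydroxylases and their partners, which modify proline and lysine in new chains, 7 rose and 0 fell. The lysyl hydroxylase Plod2 rose from 148 ± 23.4 to 503 ± 48.9 CPM (edgeR log2 fold change 1.77, SE 0.21, adjusted p = 2.04e-07), P4hb, the shared beta subunit of prolyl 4-hydroxylase, from 197 ± 45.99 to 476 ± 102 CPM and the prolyl 3-hydroxylase P3h1 from 39.6 ± 10.6 to 117 ± 27.5 CPM. Of 10 folding and export genes, 5 rose and 0 fell, among them Serpinh1, the collagen chaperone HSP47, from 503 ± 56.98 to 1258 ± 229 CPM, Fkbp14 from 162 ± 2.51 to 355 ± 9.99 CPM and Fkbp10 from 18.6 ± 8.47 to 54.8 ± 13.97 CPM, both prolyl isomerases of the endoplasmic reticulum. The glycosyltransferase gene Colgalt2 fell from 88.5 ± 11.4 to 30.3 ± 12.7 CPM, and Colgalt1 was not called (log2 fold change 0.55, edgeR adjusted p = 0.168).

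All 5 cross-linking genes were tested and rose: Lox from 77.1 ± 14.04 to 1208 ± 185 CPM, Loxl1 from 238 ± 17.9 to 591 ± 129 CPM and Loxl2 from 819 ± 72.9 to 1429 ± 61.5 CPM, with Loxl3 and Loxl4 at log2 fold changes of 1.55 and 3.06. Propeptide cleavage, which frees fibrillar chains for assembly, had 4 of 8 genes tested, 0 rose and 1 fell. That gene was Pcolce2, an enhancer of the cleaving protease, which fell from 131 ± 45.8 to 39.2 ± 8.004 CPM. The main protease gene Bmp1 was not called (log2 fold change -0.34, edgeR adjusted p = 0.250).

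Proteins that coat fibrils went both ways, with 2 of 13 tested genes rising and 6 falling. Postn, encoding periostin, rose from 27.5 ± 11.9 to 2592 ± 413 CPM, the proteoglycan gene Bgn rose from 614 ± 230.2 to 1962 ± 260.4 CPM, and Abi3bp fell from 815 ± 119 to 248 ± 8.58 CPM. Of 7 collagen receptor genes tested, 2 rose and 1 fell. Itga11, the integrin chain that binds fibrillar collagen on fibroblasts, fell from 138 ± 27.7 to 31.2 ± 11.004 CPM, while its partner chain Itgb1 rose from 479 ± 52.4 to 766 ± 156 CPM and the receptor kinase gene Ddr1 from 9.33 ± 4.56 to 25.2 ± 8.54 CPM. Ddr2, the discoidin receptor of mesenchymal cells, was not called (log2 fold change -0.40, edgeR adjusted p = 0.136).

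Among 9 tested turnover genes 2 rose and 5 fell. Timp1, a protease inhibitor, rose from 7.79 ± 3.26 to 916 ± 116 CPM, Timp2 fell from 2695 ± 70.7 to 912 ± 243 CPM and Fap, a serine protease, fell from 94.6 ± 19.6 to 36.1 ± 11.97 CPM. Of 8 tested laminin, nidogen and perlecan genes, the partners of type IV collagen, 0 rose and 5 fell, among them Nid1 from 2051 ± 396 to 799.7 ± 235 CPM, Lama2 from 329 ± 54.4 to 143 ± 65.1 CPM and Lamb1 from 334 ± 52.6 to 189 ± 26.8 CPM. No list was tested against the other genes, and counts are to be read beside the 15% and 14.3% of all tested genes called higher and lower. With the receptor reads as covariate, 13 of the 70 tested genes were called higher and 14 lower, where 6.9% and 6.2% of all genes tested were.

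**Figure D5:**
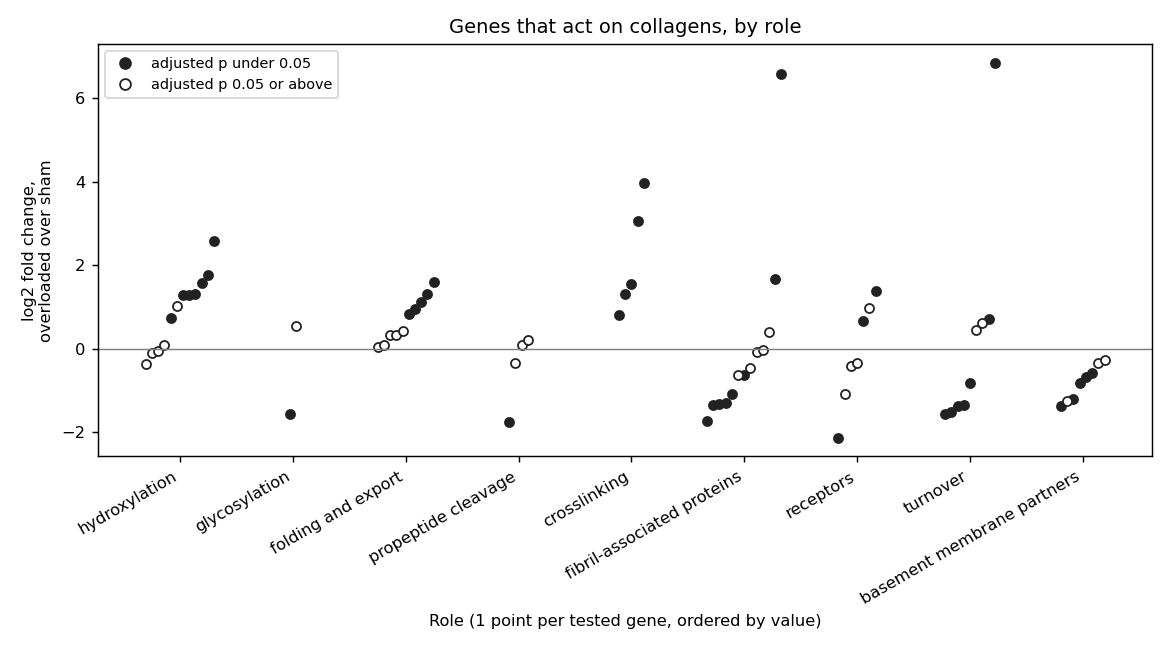
Log2 fold change of overloaded over sham for the 70 tested genes of 9 roles, 1 point per gene ordered by value within a role; filled points have an edgeR adjusted p under 0.05. All 5 cross-linking genes lie above 0 and all 8 basement membrane partners lie below 0.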

How the data were processed

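RNA of FAPs was read in 3 sham and 3 overloaded libraries, grouped by the treatment label. The authors deposited raw counts per gene, and the submitters' processing notes name the build GRCm38 and the tools featureCounts 2.0.1, HISAT2 2.2.1, Trim Galore 0.6.6 and DESeq2 1.28.1. Not given in the sources used here are the annotation release, the strand setting, and how multi-mapping reads and molecular identifiers were handled. All 6 count columns were used, and gene positions, exon lengths and exon overlaps came from GENCODE M21 on GRCm38. Exons overlap another gene for 13 chains, by at most 6.07% of their bases.

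Counts were tested with edgeR 4.0.16 in R 4.3.3, by the robust quasi-likelihood F test after TMM scaling and filterByExpr (minimum count 10, minimum total 15), with Benjamini-Hochberg adjustment over 7207 genes. The SE is the log2 fold change divided by the square root of F, and 95% intervals are 1.96 SE either side. A second fit used collagen totals as library sizes. Ratios were tested by exact permutation in SciPy 1.17.1. Named were all chains, with values by library where called or holding at least 2% of collagen counts, and up to 3 called genes of each pathway list by adjusted p; Loxl3, Loxl4, Colgalt1, Bmp1 and Ddr2 were added after their values were seen. Members, classes, lists and alternatives were chosen with earlier results of these data known. Alternatives were other scalings, filters and tests (DESeq2 1.42.0, limma 3.58.1), thinning to 500402 counts, a replicate block, a background covariate and leaving out each library. Protein features were not analysed here.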

Additional observations from a re-analysis of the deposited data

How the results depend on the processing

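The 8 chains called higher stayed at 8 to 9 without any 1 library, and 5 were called with the share of receptor reads as covariate. The 5 called lower became 3 with no count filter, 3 at a minimum count of 30, 3 with thinning and 1 with that covariate, and ranged from 2 to 5 without 1 library: 3 without sham replicate 3 or overloaded replicate 2 and 2 without overloaded replicate 3. A stricter filter and thinning leave chains such as Col4a3 untested; otherwise the cause was not tested. Pathway genes called higher went from 23 to 13 with the covariate and those called lower from 19 to 14, while over all genes tested higher calls went from 1084 to 497 and lower calls from 1027 to 447. Against a collagen total without Col1a1, Col1a2 and Col3a1, chains called higher went from 2 to 5 and lower from 13 to 7, since that total rose less, and log2 fold changes changed sign for Col6a2 (0.034), Col6a3 (0.12), Col27a1 (0.25), Col5a1 (0.27), Col4a2 (0.038), Col16a1 (0.49) and Col1a2 (0.58), none of them called. The Col16a1 value against the whole total ranged from -0.28 to 0.034 without 1 library. Counts divided by exon length gave differences, overloaded minus sham, of 1.22 percentage points for collagen in all counts (1.94-fold, from 4.29 points by counts), 14.2 for fibrillar chains, -1.26 for FACIT chains, 1.49 for the short-chain network, -10.2 for the beaded filament class and -1.62 for multiplexins, all in the direction found by counts. Values near 0 changed sign for Col18a1 with library size only (-0.045), limma-voom (-0.025) and the replicate block (-0.023), and between -0.15 and 0.29 without 1 library. Without 1 library Col6a1 ran from -0.52 to 0.02 and the Col3a1 to Col1a1 log2 ratio from -0.21 to 0.02.

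Whether sham and overloaded libraries of the same number are paired is not known. Their deviations correlated at 0.016, 0.014 and 0.022, against -0.027 to 0.0086 for libraries of unlike number. Each library thus correlated best with its own number, but all these values were small. The deviations are taken from group means, so the correlations are not independent of each other and cannot settle the pairing. With the replicate number as a block 8 chains were called higher and 5 lower, and no chain's call changed. At this depth 22 of 44 chains could not be tested, and Col4a3 and Col4a5 rest on few counts.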
